A study of Homo sapiens with 6 samples.

Results

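Cytosolic ribosomal protein genes were taken as the rows of the deposited table whose symbol is RPL or RPS followed by a number, with at most an A, X or L and 1 further digit after it, together with RPLP0, RPLP1, RPLP2 and RPSA. The rule gave 84 of 28395 rows, 52 of the large subunit and 32 of the small. It uses names only, so RPL36AL, FAU and RACK1, which also encode ribosomal proteins or parts of them, lie outside it. The study treated HCC827 cells with vehicle or an EGFR inhibitor for 24 h. HCC827, an established human line from a lung adenocarcinoma, has an activating EGFR deletion. All 6 RNA libraries came from this line, 3 from cells given DMSO and 3 from cells given 1 μM erlotinib, a small-molecule inhibitor of the EGFR kinase. The study's methods state in general that its cell experiments were done repeatedly and independently, but neither they nor the labels say whether these libraries came from separate cultures, so the p-values measure the spread between these libraries, which may be technical. The erlotinib libraries are called a, b and c in the order of their columns.

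Each ribosome is built from a small and a large subunit, in which ribosomal RNA is held by ribosomal proteins, each usually present as a single copy. Many ribosomal protein mRNAs begin with a C followed by a run of pyrimidines, the 5′ terminal oligopyrimidine tract or TOP, through which mTORC1 and LARP1 control their translation. EGFR signalling reaches mTORC1 through PI3K and AKT, so the family is a usual readout of growth signalling. RNA-seq reports the amount of these mRNAs and not their translation.

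The start sites bear on how these genes are described. The first base of the RefSeq transcript is a C followed by 4 pyrimidines in 43 of the 67 members that have a promoter entry (64.2%), against 5 of 70 mitochondrial ribosomal protein genes (7.14%) and 1104 of all 27305 promoters (4.04%). The motif was read on the gene's own strand only, as C followed by 4 bases that are each C or T, at the annotated start alone. A match is a description of letters, and an annotated start that is off by a few bases hides the motif. The windows of 9 genes among those that fell or rose most are printed to show what starts with and without the motif look like. They run from 15 bases before the start to 14 after it in RefSeq on GRCh38.p14, 5′ to 3′, and the longest run of C and T that reaches within 5 bases of the start is in capitals.
RPS14: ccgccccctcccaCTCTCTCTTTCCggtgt
RPS26: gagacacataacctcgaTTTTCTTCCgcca
RPL17: CCTCTTTCCCTaagcagcctgaggtgagtg
RPL26: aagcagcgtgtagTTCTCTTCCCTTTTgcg
RPL27: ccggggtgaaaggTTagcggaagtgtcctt
RPS29: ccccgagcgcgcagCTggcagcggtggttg
RPL13A: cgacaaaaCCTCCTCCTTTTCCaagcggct
RPL28: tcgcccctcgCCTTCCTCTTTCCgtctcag
RPS12: gcgtgcggatgaggCCTCTTTCCCTgccgc
The first 5 fell with erlotinib and the last 4 rose, and both groups hold starts with and without the motif. Of these, RPS14, RPL26, RPL13A, RPL28 and RPS12 match it. Each window except that of RPL27 holds upstream sequence and the first transcribed bases: RPS14 at chr5:150449725-150449754 (minus strand), RPS26 at chr12:56041903-56041932 (plus strand), RPL17 at chr18:49492451-49492480 (minus strand), RPL26 at chr17:8383179-8383208 (minus strand), RPL27 at chr17:42998404-42998433 (plus strand), RPS29 at chr14:49598696-49598725 (minus strand), RPL13A at chr19:49487593-49487622 (plus strand), RPL28 at chr19:55385917-55385946 (plus strand) and RPS12 at chr6:132814554-132814583 (plus strand). The RPL27 window lies inside the annotated span of the gene, which begins at chr17:42998273. The 15 bases before the start used for RPL27 are therefore not upstream of the gene.

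How much of each mRNA the table can show is limited by copies. RefSeq lists 1988 pseudogenes of the members, for 78 of the 84, with a median of 15.5 a gene and the most, 137, for RPL21. An alignment of each coding sequence to GRCh38 found 850 intronless copies that cover at least 80% of it at 90% identity or more. In 62 members fewer than 50 coding bases lay outside every stretch of at least 95% identity elsewhere. The coding sequences are short, with a median of 454.5 bases and a longest coding exon of 161 bases in the median. The authors aligned with Bowtie2, which does not split a read over an intron, and counted uniquely mapped reads, so a read from an exon junction of the gene or from a repeated stretch can be lost or placed on a copy. Values below are therefore reads that the row received, compared between treatments within a row and never between genes as mRNA levels. All signals are reads divided by a size factor of the library.

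Of all reads that fell on genes, members took 0.449%, 0.430% and 0.446% with DMSO and 0.466%, 0.468% and 0.460% in erlotinib libraries a, b and c. The means were 0.442% ± 0.0104 and 0.465% ± 0.00443 (SD, n = 3). The erlotinib libraries all lay slightly above the DMSO libraries. Reads are counted per library, so less RNA per cell and fewer cells cannot be told apart in any value here. RPL8 and RPL29 alone held 30.5% of the members' signal, and 69 of the 84 rows had a mean signal under 1000, so the sum says little about the typical member. The library totals ran from 20760204 to 24641819 reads.

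The other 5 members could not be tested. RPS9 and RPL10L had 0 reads in every library, which allows a share of up to 1.45e-05% of the reads of the smallest library (3 reads, counting error only). RPS18 had 1 read in erlotinib library c, and RPL3L, the striated muscle paralogue of RPL3, had a mean signal of 0.714 with DMSO and 1.94 with erlotinib. RPS9 and RPS18 are core small subunit proteins. Their coding sequences were matched on alternate contigs of the reference over 53.6% (9 contigs) and 22.1% (5 contigs) of the length. By the same measure RPS26 was matched over its full length and RPL13A over 99.2%, and both received reads. The measure does not tell a copy of the gene from an intronless copy. What the contigs contributed was not tested.

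Of the 79 tested members, 34 were lower with erlotinib, 7 were higher and 38 passed in neither direction (limma, Benjamini-Hochberg adjusted p under 0.05). The background was 35.4% lower and 35.3% higher among the 14215 genes tested, against 43.0% and 8.86% of the members. The median log2 fold change of the members was -0.23, beside 0.02 for all genes tested. The size of the change was modest: 6 members fell by at least 1 log2 unit and none rose that far, and the 38 members that passed in neither direction lay between -0.32 and 0.38. The scaling sets the balance. With each library scaled to its total reads, the median of all tested genes was 0.19, the median member stood at -0.05, and 21 members were lower and 14 higher, beside 27.8% lower and 43.3% higher among all genes tested. With upper-quartile scaling 25 were lower and 14 higher, beside 28.6% and 42.7%. Such scaling divides each library by a single factor, which shifts all genes nearly alike. The distance of the median member from the median gene, -0.24 under the size factors, was therefore bound to stay the same.

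**Figure D1:**
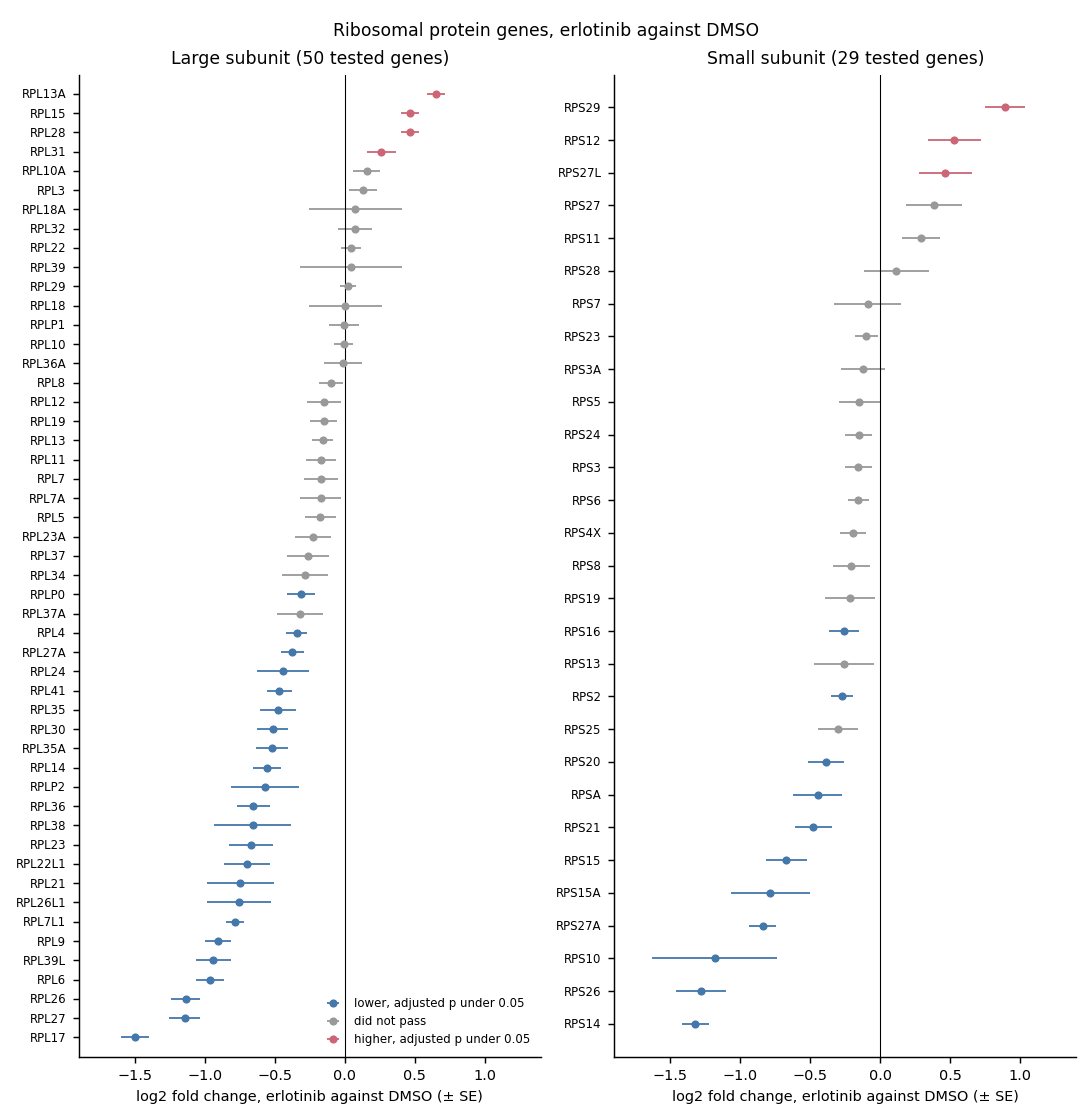
Log2 fold change of each tested ribosomal protein gene with erlotinib against DMSO (x axis, bars SE of limma, 3 libraries a group), large subunit left and small subunit right. Under the size factors 34 genes fell and 7 rose, and under scaling to total reads, where all genes shift up, 21 fell and 14 rose.

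The median per library told the same of each library. Set against the DMSO mean of each gene, the median member stood at 0.02, -0.01 and 0.02 log2 units in the DMSO libraries and at -0.23, -0.21 and -0.31 in erlotinib libraries a, b and c. In 33 members every erlotinib library lay below every DMSO library and in 9 every one lay above, while in 37 the groups overlapped. Over all genes tested the shares were 36.9% below and 36.7% above.

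The subunits had similar shares of calls. In the small subunit 11 of 29 tested genes were lower (37.9%) and 3 higher, with a median of -0.21. In the large subunit 23 of 50 were lower (46.0%) and 4 higher, with a median of -0.27. Among all genes tested 35.4% were lower and 35.3% higher, so the lower share of the small subunit was near the background. Members whose start carries the pyrimidine motif and those with another start also had similar shares, 18 of 41 and 10 of 23 being lower and 4 and 3 being higher. Their medians were -0.26 and -0.17. Of the 59 tested members with fewer than 50 private coding bases 25 were lower, and of the other 20 members 9 were. No test of these list differences was run.

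In the small subunit the 5 largest falls were in RPS14, RPS26, RPS10, RPS27A and RPS15A. RPS14, which sits on the platform of the subunit, had a signal of 1420, 1177 and 1314 with DMSO and 552, 512 and 495 with erlotinib. The groups stood far apart (log2 fold change -1.32 ± 0.09, SE; limma adjusted p = 8.7e-11), but summed with its pseudogene row RPS14P3, which held 91.5% of the joint signal, the log2 fold change was -0.17 ± 0.06. RPS26, at the mRNA exit channel, had 251, 251 and 237 with DMSO and 127, 99.99 and 79.6 with erlotinib. It fell by 1.28 on the log2 scale (SE 0.18, limma adjusted p = 2.04e-06), and no library crossed over. RPS27A, which encodes ubiquitin fused to a ribosomal protein, had 909, 1038 and 867 with DMSO and 534, 530 and 501 with erlotinib. All 3 erlotinib libraries lay below (-0.84 ± 0.10, limma adjusted p = 1.3e-07).

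RPS10 and RPS15A rest on few reads. RPS10 had 47.6, 24.1 and 42.8 with DMSO and 10.2, 11.9 and 30.9 with erlotinib, and the groups overlapped (log2 fold change -1.18 ± 0.45, limma adjusted p = 0.023). Summed with its pseudogene row RPS10P7 it turned to 0.51 ± 0.27 and did not pass. RPS15A had 91.9, 68.7 and 62.1 against 48.0, 51.5 and 30.0 (-0.79 ± 0.28, limma adjusted p = 0.017). Neither call held when some libraries were left out. The RPS10 value was -0.999 without DMSO replicate 1, -1.07 without DMSO replicate 3, -0.90 without erlotinib library a and -0.9995 without b, and RPS15A was -0.62 without DMSO replicate 1 and -0.55 without erlotinib library c, none of them passing. Under total-read scaling they stood at -1.01 and -0.61 and did not pass either.

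In the small subunit 3 genes rose, RPS29, RPS12 and RPS27L. RPS29, a small zinc-binding protein of the subunit head, had 182, 165 and 164 with DMSO and 285, 353 and 313 with erlotinib, a fold of 1.86. The groups were apart (log2 fold change 0.89 ± 0.14, limma adjusted p = 1e-05). Its annotated span overlaps RN7SL1, the RNA of the signal recognition particle, which carried a signal of 4153 ± 1203 with DMSO and 3680 ± 588 with erlotinib (SD, n = 3) and did not pass the test. Reads of overlapping genes cannot be told apart without strand, and whether counting used strand is not stated. RPS12 had 163, 96.6 and 142 with DMSO and 197, 201 and 171 with erlotinib (0.53 ± 0.19, limma adjusted p = 0.017). Its call was lost without DMSO replicate 2 (0.31), without erlotinib library a (0.50) and without b (0.49). RPS6, the classic substrate of S6 kinase, had 2971, 3502 and 3345 with DMSO and 3079, 2763 and 2942 with erlotinib, and the groups overlapped. Its log2 fold change was -0.16 ± 0.07 (limma adjusted p = 0.064), -0.23 and past the threshold without DMSO replicate 1, and 0.02 under total-read scaling.

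RPSA, the laminin receptor precursor and a small subunit protein, had 147, 138 and 147 with DMSO and 102, 109 and 105 with erlotinib, with no overlap (-0.45 ± 0.17, limma adjusted p = 0.028). The call did not pass without DMSO replicate 1 (-0.43), DMSO replicate 3 (-0.44), erlotinib library a (-0.43) or erlotinib library c (-0.44), nor under scaling to total reads (-0.27).

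In the large subunit the 5 largest falls were in RPL17, RPL27, RPL26, RPL6 and RPL39L. RPL17, at the rim of the peptide exit tunnel, had a signal of 957, 858 and 886 with DMSO and 312, 328 and 315 with erlotinib, a fold of 0.353. This was the largest fall of the family, and the groups were far apart (log2 fold change -1.50 ± 0.10, limma adjusted p = 3.2e-11). All of its coding sequence lay in stretches of at least 95% identity to another place. Its annotated span overlaps RPL17-C18orf32, which had a mean signal of 0, and what this overlap did to the RPL17 counts was not tested. RPL26, also at the exit and known to bind p53 mRNA, had 1276, 1112 and 1356 against 653, 516 and 537 (-1.14 ± 0.10, limma adjusted p = 4.4e-09). RPL27 had 797, 706 and 675 against 357, 302 and 326 (-1.14 ± 0.11, limma adjusted p = 9.9e-09). None of its coding sequence lay within 95% identity of another place, so its 408 coding bases were all private. RPL6 had 808, 727 and 724 against 400, 375 and 381 (-0.96 ± 0.10, limma adjusted p = 3.4e-08). In each of these genes every erlotinib library lay well below every DMSO library.

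RPL13A, RPL15, RPL28 and RPL31 rose. RPL13A, also the silencing subunit of the GAIT complex that represses translation in myeloid cells, had 4514, 4297 and 4033 with DMSO and 6490, 6681 and 7011 with erlotinib (log2 fold change 0.65 ± 0.07, limma adjusted p = 2e-08). RPL15 had 6268, 6604 and 5893 against 8452, 8910 and 8577 (0.47 ± 0.06, limma adjusted p = 1.5e-06), and RPL28 had 2600, 2483 and 2597 against 3377, 3673 and 3566 (0.47 ± 0.07, limma adjusted p = 3.1e-06). The 3 genes were higher in every erlotinib library. RPL31, beside the exit tunnel, had 399, 457 and 448 against 529, 516 and 517, and its smaller rise of 0.26 ± 0.11 (limma adjusted p = 0.033) was lost without DMSO replicate 1 (0.20) and without each erlotinib library (0.25, 0.27 and 0.27). RPL28 and RPL31 overlap UBE2S and TBC1D8, which had mean signals of 942 and 867. Among the other genes named, RPL5 overlaps DIPK1A (414), RPL23A overlaps TLCD1 (358), RPL10 overlaps DNASE1L1 (542), RPL15 overlaps NKIRAS1 (126), RPS27A overlaps CLHC1 (85.3) and RPL26L1 overlaps RPL26L1-AS1 (27.6), with the mean signal of the partner in parentheses. RPS10 overlaps RPS10-NUDT3, which had a mean signal of 0. What the overlaps contributed was not tested.

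**Figure D2:**
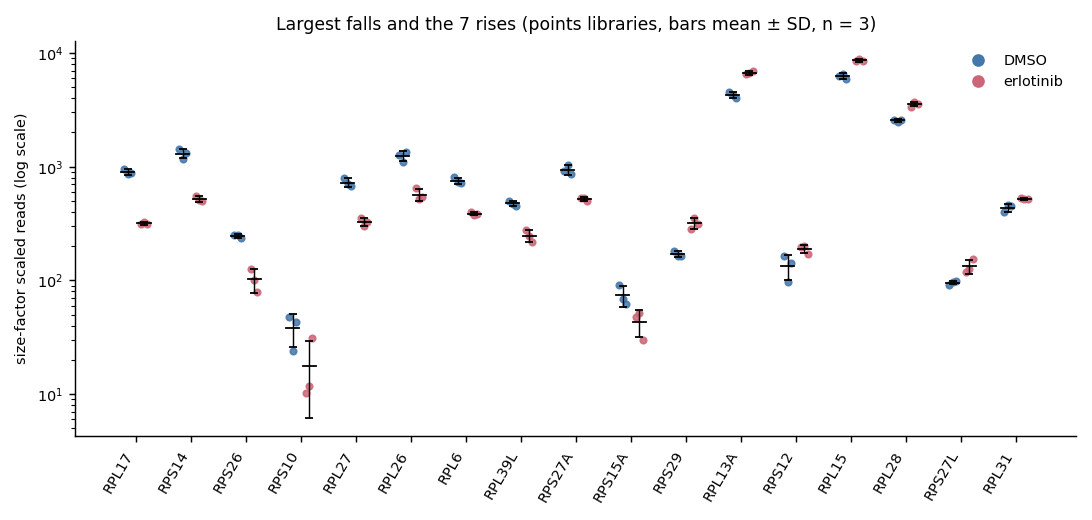
Signal in each library (log y axis) for the 5 largest falls of each subunit and the 7 genes that rose, points single libraries and bars mean ± SD of 3. The erlotinib points of RPL17 lie between 312 and 328 and those of DMSO between 858 and 957, while RPS10 overlaps.

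The rows with the most reads were RPL8, RPL29 and RPL15. RPL8 and RPL29 passed in neither direction. RPL8 had 18883, 13840 and 16022 with DMSO and 14896, 16266 and 14074 with erlotinib (-0.10 ± 0.09, limma adjusted p = 0.32), and -0.21 past the threshold without DMSO replicate 2. RPL29, the heparin-binding member, had 14592, 13929 and 14178 against 14209, 14545 and 14650 (0.02 ± 0.06, limma adjusted p = 0.73). Correcting the libraries for base composition (GC) and length of transcripts, an alternative added after seeing the data, gave -0.51 for RPL8 and -0.13 for RPL29, both past the threshold. RPL29 passed in the opposite direction under total-read scaling (0.20) and upper-quartile scaling (0.19).

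The ribosomal stalk, which recruits the elongation factors, is formed by RPLP0 with RPLP1 and RPLP2 and sits beside RPL12. RPLP0 had 4550, 3072 and 3748 with DMSO and 2994, 3301 and 2772 with erlotinib, and the groups overlapped (-0.31 ± 0.10, limma adjusted p = 0.01). RPLP2 had 118, 73.4 and 119 against 82.1, 68.3 and 55.2, also with overlap (-0.57 ± 0.24, limma adjusted p = 0.042). The RPLP0 call was lost without DMSO replicate 1 (-0.17) and without erlotinib library c (-0.25), and that of RPLP2 without DMSO replicate 1 (-0.46), DMSO replicate 3 (-0.45), erlotinib library b (-0.58) or c (-0.43). Neither passed under total-read scaling (-0.13 and -0.39) or upper-quartile scaling (-0.15 and -0.41), and RPLP2 also did not pass by DESeq2 (-0.58), limma-voom (-0.53), TMM factors in limma (-0.55) or with no filter (-0.57). RPLP1 had a mean signal of 649 ± 78.4 with DMSO and 643 ± 32.1 with erlotinib, and RPL12 had 403 ± 41.3 and 364 ± 36.0 (SD, n = 3). RPLP1 and RPL12 passed in neither direction.

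RPL5 and RPL11, which with the 5S rRNA bind MDM2 when assembly is disturbed, passed in neither direction. RPL5 had 491 ± 20.4 with DMSO and 437 ± 53.3 with erlotinib, a log2 fold change of -0.17 ± 0.11, and RPL11 had 839 ± 124 and 742 ± 55.4 (SD, n = 3), a log2 fold change of -0.17 ± 0.11. RPL11 was -0.29 and past the threshold without DMSO replicate 2. Under scaling to total reads both stood at 0.01.

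Of the 7 genes around the exit tunnel 3 fell (42.9%), 1 rose (14.3%) and 3 passed in neither direction. Their lower share was near the 35.4% over all genes tested, where 35.3% were higher. RPL17 and RPL26 fell as given above and RPL35 had 384 ± 29.9 with DMSO and 277 ± 32.5 with erlotinib (SD, n = 3), a fall of 0.47 on the log2 scale (SE 0.13, limma adjusted p = 0.0026) that did not pass under total-read scaling (-0.30). RPL19 stood at -0.15 ± 0.09, and at -0.23 past the threshold without DMSO replicate 1. RPL23A stood at -0.23 ± 0.13 and RPL39 at 0.04 ± 0.36. RPL39 had only 25.2 ± 0.722 and 26.2 ± 3.85 of signal (SD, n = 3), so a moderate change was not detectable at this depth.

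Paralogues replace or sit beside a core gene in some cells. RPL7L1, a pre-ribosome assembly factor, had 6316, 6439 and 5984 with DMSO and 3647, 3682 and 3564 with erlotinib (-0.78 ± 0.06, limma adjusted p = 6.4e-10), and its parent RPL7 had 617, 447 and 513 against 432, 507 and 451 (-0.17 ± 0.12, limma adjusted p = 0.21; -0.28 and past the threshold without DMSO replicate 2). RPL22L1 had 280, 420 and 274 against 220, 179 and 191 (-0.70 ± 0.16, limma adjusted p = 0.00068) while RPL22 had 2763, 2785 and 2600 against 2749, 2919 and 2734 (0.04 ± 0.07, and 0.22 past the threshold under total-read scaling). RPL39L, expressed in testis and in many tumours, had 498, 473 and 455 against 281, 247 and 217 (-0.94 ± 0.13, limma adjusted p = 1e-06). RPL26L1 had 89.6, 140 and 169 against 84.0, 76.2 and 68.3 (-0.75 ± 0.23, limma adjusted p = 0.0062), -0.56 and not past the threshold without DMSO replicate 3, and its parent RPL26 fell further. These 4 paralogues were lower in every erlotinib library.

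RPS27L, a p53 target, had 91.9, 96.6 and 98.5 with DMSO and 118, 127 and 154 with erlotinib, above in each library (0.46 ± 0.19, limma adjusted p = 0.034). The call was lost without DMSO replicate 1 (0.44), erlotinib library b (0.49) and erlotinib library c (0.35). RPS27 had 97.6, 105 and 74.9 against 124, 124 and 111 (0.38 ± 0.20, limma adjusted p = 0.095), and 0.48 past the threshold without DMSO replicate 2, and 0.56 past it under total-read scaling. RPL10 and RPL3, the parents of the paralogues RPL10L and RPL3L, had log2 fold changes of -0.01 ± 0.07 and 0.13 ± 0.10, and of 0.17 and 0.31, both past the threshold, under total-read scaling.

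The log2 ratio of paralogue to parent changed by -0.61 for RPL7L1 to RPL7, -0.74 for RPL22L1 to RPL22, -0.98 for RPL39L to RPL39, 0.38 for RPL26L1 to RPL26 and 0.08 for RPS27L to RPS27. In the first 4 pairs no erlotinib ratio fell within the range of the DMSO ratios. The exact permutation p was 0.1 for each of those 4, the smallest that 3 against 3 libraries allow, and 0.5 for the last, with adjusted values of 0.125 and 0.5 over 5 pairs (two-sided). This test cannot give a p under 0.05 with 3 libraries against 3.

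**Figure D3:**
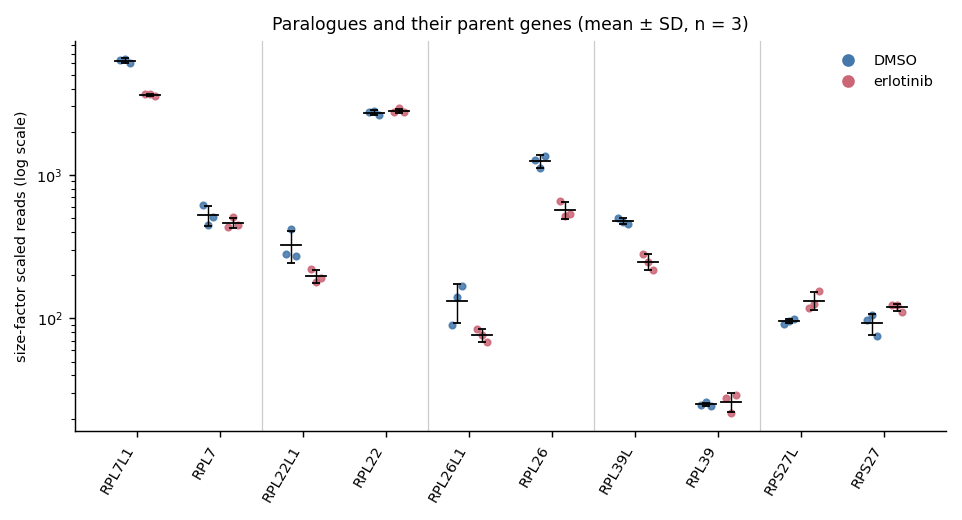
Signal in each library (log y axis) of 5 paralogues, each followed by its parent gene, points single libraries and bars mean ± SD of 3. RPL7L1, RPL22L1 and RPL39L lie lower with erlotinib while the libraries of RPL7, RPL22 and RPL39 overlap.

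Rows of processed pseudogenes also held many reads. The 32 rows named for a member and a pseudogene number took 0.352%, 0.286% and 0.337% of the reads with DMSO and 0.411%, 0.420% and 0.400% with erlotinib. RPL13AP5, RPS14P3 and RPSAP58 held 97.7% of that signal, and 9 rows had 0 reads in all libraries. The examples of copy rows here were chosen after their values were seen. RPL13AP5 had 61242, 44648 and 55895 with DMSO and 64291, 67149 and 61776 with erlotinib (0.27 ± 0.09, limma adjusted p = 0.011), over 10 times the signal of RPL13A. RPS14P3 had 10136, 10032 and 9862 against 9437, 9768 and 9358 (-0.07 ± 0.06, limma adjusted p = 0.29). RPSAP58 had 9772, 8890 and 8840 against 7694, 7585 and 8309 (-0.22 ± 0.07, limma adjusted p = 0.0051).

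Summing a gene with its copy rows moved RPS10 and RPS14 by over 1 log2 unit. The 2 rows of RPS14 together went from 11314 ± 211 to 10040 ± 218 (SD, n = 3), a log2 fold change of -0.17 ± 0.06 (limma adjusted p = 0.0147) beside -1.32 for the RPS14 row alone, since 91.5% of the sum lay on RPS14P3. RPL13A with its 5 copy rows stood at 0.30 ± 0.09 (limma adjusted p = 0.00452) beside 0.65, and RPSA with 4 at -0.23 ± 0.07 (limma adjusted p = 0.00401) beside -0.45. RPS10 turned to 0.51 ± 0.27 (limma adjusted p = 0.097) because RPS10P7 rose from 21.1 ± 6.55 to 65.3 ± 18.1 (SD, n = 3). RPL23A summed with 6 rows passed at -0.41 ± 0.10, and RPL23, which is outside the rule for named genes, went from -0.67 to -0.17 ± 0.09 and no longer passed. Over all members the count was 33 lower and 7 higher with the sums. Whether reads on a copy row came from the gene or from the copy was not tested.

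**Figure D4:**
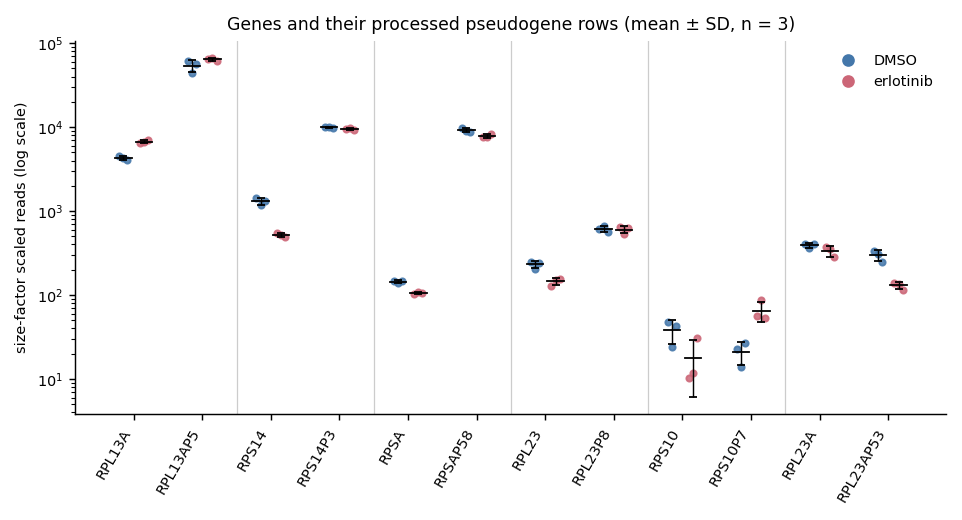
Signal in each library (log y axis) of 6 genes, each followed by one of its processed pseudogene rows, points single libraries and bars mean ± SD of 3. RPS14 falls from 1304 to 520 in the mean while RPS14P3 stays between 9358 and 10136.

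The mitochondrial ribosomal protein genes, whose products translate the mitochondrial genome, had a lower median and more calls. Of 78 such rows 73 were tested, 66 were lower, 1 was higher and the median log2 fold change was -0.74. MRPL12 fell from 2965 ± 321 to 1167 ± 62.3 (log2 fold change -1.34 ± 0.08, limma adjusted p = 9.5e-12) and MRPL36 from 1061 ± 75.2 to 441 ± 16.3 (-1.26 ± 0.10, limma adjusted p = 2e-10; SD, n = 3). MRPL10 was the gene that rose, from 1397 ± 44 to 1764 ± 16 (SD, n = 3). With scaling to total reads 59 were lower and 4 higher.

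Genes that assemble the subunits fell almost without exception. Of 17 small subunit assembly factors 16 were lower, with a median of -1.13, led by EMG1, a methyltransferase of 18S rRNA (-1.72 ± 0.09, limma adjusted p = 4.2e-13), and PNO1 (-1.70 ± 0.08, limma adjusted p = 2.7e-13). Of 26 large subunit factors 24 were lower and 1 higher, with a median of -1.02. MRTO4, which holds the place of the stalk base in the precursor, fell from 2918 ± 123 to 913 ± 106 and RPF2, which brings in the 5S particle, from 2418 ± 269 to 768 ± 34.6 (SD, n = 3). EFL1, the GTPase that releases EIF6, rose by 0.55 ± 0.13 (limma adjusted p = 0.00072). Initiation and elongation factors outside the TOP list had 22 of 28 lower and none higher, with a median of -0.72. The rows that fell most were EEF1E1, an elongation factor by name (-2.01 ± 0.19, limma adjusted p = 1e-08), and EIF3K (-1.81 ± 0.26, limma adjusted p = 2.4e-06). With total-read scaling 20 of the initiation and elongation factors were lower and 2 higher.

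**Figure D5:**
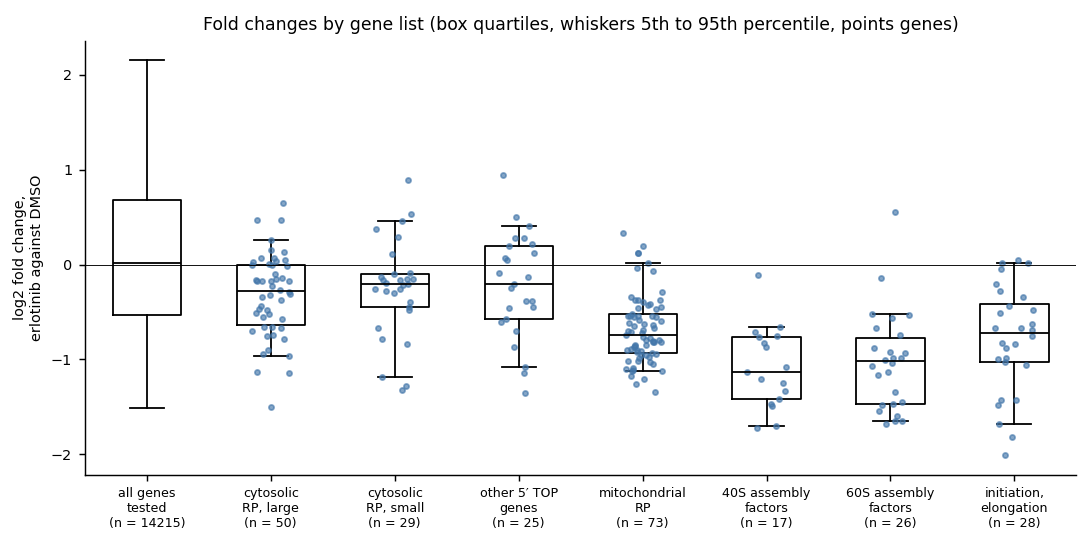
Log2 fold change (y axis) of all genes tested and of 7 gene lists, boxes quartiles, whiskers 5th to 95th percentile, points single genes. The median is 0.02 for all genes, and -0.27 and -0.21 for the large and small subunit ribosomal protein genes. It is -0.74 for the mitochondrial ones and -1.13 for small subunit assembly factors. Scaling to total reads moves the median of all genes to 0.19.

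Other genes known for a TOP start had a median close to that of the members. Of 25 tested 10 were lower and 7 higher, with a median of -0.21. The background was 35.4% lower and 35.3% higher among all genes tested. The lower share of these TOP genes was therefore near the background, and their higher share was somewhat below it. EEF1B2, a subunit of the exchange factor of elongation factor 1, fell from 1219 ± 123 to 477 ± 27.8 and NPM1, a nucleolar chaperone, from 6428 ± 1499 to 2855 ± 138 (SD, n = 3). EIF4A2 rose by 0.95 ± 0.07 (limma adjusted p = 1.1e-10) and EIF4B by 0.50 ± 0.06 (limma adjusted p = 3.6e-07). The 7 higher were 4 without DMSO replicate 2 and 3 without erlotinib library a. Ribosomal protein rows outside the name rule gave log2 fold changes of -0.48 ± 0.07 for RPL36AL, -0.24 ± 0.16 for FAU and 0.07 ± 0.07 for RACK1, of which RPL36AL passed.

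In a wider list of genes around mTOR and translation control, which also holds MYC and MAX, 12 of 21 were lower (57.1%) and 6 higher (28.6%). Over all genes tested 35.4% were lower and 35.3% higher. EIF4E, the cap-binding factor, fell from 782 ± 172 to 300.5 ± 1.29 and LARP4 from 4503 ± 419 to 2205 ± 49.5 (SD, n = 3). DEPTOR, an inhibitor of mTOR, rose from 43.1, 31.6 and 37.5 with DMSO to 339, 282 and 344 with erlotinib (3.08 ± 0.20, limma adjusted p = 1.4e-11), and PDCD4, an inhibitor of EIF4A1, rose from 518 ± 91.7 to 1315 ± 74.8 (SD, n = 3).

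The cell line label was checked against markers. The 8 epithelial markers were all detected, with a mean KRT7 signal of 101791. Of 6 fibroblast markers COL1A1 led with a mean of 147 and 3 never exceeded 3 reads. Of 5 endothelial markers VWF led with 15.7, and of 6 immune markers CD68, a lysosomal protein that is not limited to immune cells, led with 3146. HLA-DRA and CLDN5 had 0 reads in every library. Summed over the fibroblast list the signal was 73.7, 75.2 and 109 with DMSO and 260.2, 223 and 215 with erlotinib, and over the endothelial list 34.0, 15.8 and 20.3 against 58.1, 46.5 and 45.9. The immune list summed to 2787, 2794 and 3170 against 3241, 3536 and 3467, and the epithelial list to 365148, 337524 and 355947 against 231718, 237168 and 244422. Of the 8 epithelial markers 5 fell (KRT18, KRT8, EGFR, KRT7 and KRT19), EPCAM and CDH1 passed in neither direction, and MUC1 rose from 420 ± 50.1 to 2961 ± 103 (SD, n = 3), a log2 fold change of 2.82 ± 0.09 (limma adjusted p = 3.3e-16). COL1A1, VWF and CD68 also rose with erlotinib, and what part these signals had in the results was not tested.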

How the data were processed

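Paired-end RNA-seq reads of 6 oligo(dT)-selected libraries were mapped by the authors to GRCh38 with Bowtie2 2.3.4, and uniquely mapped reads were counted with featureCounts 1.6.3, per the study's methods and processing notes, which also name DESeq2 1.18.1. The deposited values are a signal, reads divided by a size factor of each library. They are not whole, but dividing each by its library's step gave whole reads for every value (tolerance 0.02). Totals ran from 20760204 to 24641819 reads on genes. The 3 DMSO columns matched the labels by number. The 3 erlotinib columns matched by treatment only. No other per-sample column was present. Rows whose mean signal reached 10 were tested with limma 3.58.1 (R 4.3.3) on log2(signal + 1), with a variance trend and Benjamini-Hochberg adjustment over 14215 genes, at 0.05. Fold changes are on that scale and understate low genes. The members, gene lists and tests were chosen with earlier results of these data known.

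Genes named were the 5 largest falls and rises in each subunit past the threshold, the paralogue pairs, the stalk, 5S and exit tunnel lists, RPS6, RPSA, the 3 rows with most and least signal, and the 2 largest changes each way of other lists. Member coding sequences were aligned to GRCh38 with minimap2 2.31-r1302, and promoter windows and pseudogenes came from RefSeq. All 84 members matched RefSeq by symbol and 67 had a promoter entry. Alternatives were edgeR 4.0.16 quasi-likelihood, DESeq2 1.42.0, limma-voom, other scalings, pseudocounts, filters, an adjusted p under 0.01, sums with pseudogene rows and each library left out. A GC and length correction, known for 94.1% of tested genes, and a signal minimum of 200 were added after seeing the data. Replicates differed by more than sampling noise allows (chi-square over degrees of freedom, from 4.05 to 22.9). Tested on simulated data for this comparison with 200 changed genes among 14215, limma recovered 179 and made 11 false calls. In the real data 35.4% of genes were lower and 35.3% higher, so these rates may not carry over. The software also included Python 3.11.15 and matplotlib 3.10.9. Some single genes are not reported here but remain in the counts.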

Additional observations from a re-analysis of the deposited data

How the results depend on the processing

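No paired analysis was possible because the erlotinib columns carry numbers that match none of the labels' replicate numbers. Over 19 alternative fits, 19 of the 34 lower and 4 of the 7 higher members kept their call and direction in every one. The members lower stayed between 28 and 37, and higher between 5 and 8, with a library left out. The median of the members was then between -0.28 without DMSO replicate 2 and -0.19 without erlotinib library c. Under scaling to total reads 21 members were lower and 14 higher with a median of -0.0474, and 4 mitochondrial genes and 2 initiation or elongation factors were higher. Under upper-quartile scaling 14 members were higher, with a median of -0.0629. At an adjusted p under 0.01 4 were higher. Summed with pseudogene rows the members' median was -0.19, RPS10 turned to 0.51, and the difference in the share of reads grew from 0.0231 to 0.109 percentage points. With the GC and length correction 2 mitochondrial genes and 2 large subunit factors were higher. The other TOP genes higher were between 3 and 7 with a library left out.

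Members near 0 changed sign. RPLP1 and RPL10 stood at 0.00588 and 0.0067 by edgeR, 0.0208 and 0.00741 by limma-voom, and 0.0103 and 0.00748 with TMM factors in limma. Under total-read scaling RPL11 was 0.00949, RPL5 0.00563, RPLP1 0.174, RPL19 0.029, RPL7 0.00732, RPL8 0.0809, RPS6 0.0212, RPL12 0.0336 and RPL10 0.171. Under upper-quartile scaling RPLP1 was 0.158, RPL19 0.0136, RPL8 0.0654, RPS6 0.00575, RPL12 0.0182 and RPL10 0.156. With the GC and length correction RPLP1 was 0.05001, RPL3 -0.0066, RPL29 -0.134, RPL7 0.0381 and RPS6 0.000853. With a library left out RPLP1 lay between -0.11 and 0.0471, RPL8 between -0.21 and 0.0155, RPL39 between -0.0348 and 0.16 and RPL10 between -0.0345 and 0.0254. The causes were not tested. Counts limit RPS10 and RPL39, which received under 50 reads in every library.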
